A study of Mus musculus with 6 samples.

Results

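The 10 genes described here encode the machinery that loads peptides onto major histocompatibility complex (MHC) class I molecules: H2-D1, H2-K1, B2m, Tap1, Tap2, Tapbp, Psmb8, Psmb9, Psmb10 and Nlrc5. They were chosen by name as the rows of the count table whose Ensembl identifiers carry these symbols, and all 10 were found among 41388 identifiers. Their messenger RNA was measured by bulk RNA sequencing in BALB/c mouse liver with fibrosis induced over 5 weeks by carbon tetrachloride (CCl4), a hepatocyte toxin. The 3 AL/NP libraries came from mice with this fibrosis that were injected 2 times per week, in the last 2 weeks, with nanoparticles carrying the bisphosphonate alendronate at 4 mg/kg. The 3 control libraries came from mice with the same fibrosis that the sample titles call untreated. The labels repeat the injection text on every sample and name neither a carrier without drug nor a healthy liver. The drug, its carrier and the injections therefore cannot be told apart. The title of the series concerns a shift of liver macrophages out of an immunosuppressive state. The replicates are numbered with no statement that each is a separate animal, so p-values measure the spread between these libraries, which may be partly technical.

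Nucleated cells display on their surface short peptides cut from their own proteins. The proteasome cuts the proteins, the transporter associated with antigen processing (TAP) carries the peptides into the endoplasmic reticulum, and a loading complex fits them onto a heavy chain paired with beta-2 microglobulin, for inspection by CD8 T cells and natural killer (NK) cells. Interferon-gamma is the classical inducer of the whole set, through IRF1 and the transactivator NLRC5. In liver, hepatocytes, sinusoidal endothelial cells and macrophages all carry class I molecules.

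Library totals ranged from 30554483 to 39838428 counts, and the count of a member in a library from 346 to 41229. Control replicate 3 had the lowest trimmed-mean (TMM) scaling factor, 0.809. The 13 tested hepatocyte markers summed to 59905 to 70520 CPM (counts scaled to a common library size, with TMM factors) in AL/NP livers and 69429 to 90399 CPM in control livers.

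Class I genes differ in their start regions, and those of the members whose values are set against each other below are printed here as RefSeq gives them on GRCm38.p6. For H2-K1 (chr17:34000348-34000597, minus strand), H2-D1 (chr17:35262844-35263093, plus strand) and B2m (chr2:122147437-122147686, plus strand) they are the 250 bases before the transcript start. For the divergent pair Tap1 and Psmb9 it is the stretch of 225 bases between their starts (chr17:34187331-34187555), on the strand of Tap1. Capitals mark matches, on either strand, to 4 motifs: the interferon regulatory factor core AANNGAAA, an NF-kB-like motif (GGGA, any 4 bases, then CC), TGACG as found in the X2 box of MHC promoters, and CCAAT, which is the core of the Y box.

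H2-K1: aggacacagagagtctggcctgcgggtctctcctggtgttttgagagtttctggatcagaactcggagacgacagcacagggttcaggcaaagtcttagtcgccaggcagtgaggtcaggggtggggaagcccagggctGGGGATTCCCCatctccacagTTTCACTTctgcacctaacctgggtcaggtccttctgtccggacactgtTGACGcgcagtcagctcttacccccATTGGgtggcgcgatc

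H2-D1: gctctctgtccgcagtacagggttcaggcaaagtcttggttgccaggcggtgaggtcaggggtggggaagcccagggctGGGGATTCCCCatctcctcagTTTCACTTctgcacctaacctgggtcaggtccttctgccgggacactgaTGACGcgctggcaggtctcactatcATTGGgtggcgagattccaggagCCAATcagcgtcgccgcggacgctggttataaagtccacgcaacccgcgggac

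B2m: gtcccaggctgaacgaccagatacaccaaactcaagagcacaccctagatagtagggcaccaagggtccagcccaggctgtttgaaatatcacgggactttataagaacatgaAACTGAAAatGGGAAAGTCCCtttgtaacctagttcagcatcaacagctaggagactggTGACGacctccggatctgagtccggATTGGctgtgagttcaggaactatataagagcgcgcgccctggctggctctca

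Tap1 and Psmb9: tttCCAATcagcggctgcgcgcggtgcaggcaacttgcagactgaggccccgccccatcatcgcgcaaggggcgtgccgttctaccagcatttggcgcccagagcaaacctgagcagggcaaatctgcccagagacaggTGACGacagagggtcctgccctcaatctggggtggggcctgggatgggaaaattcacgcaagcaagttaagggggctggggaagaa

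The upstream sequences of H2-K1 and H2-D1 aligned over 190 bases with 170 identical, which is 89.5%. Both held the NF-kB-like match, the interferon core, TGACG and a CCAAT match in the same order. B2m held the same 4 motifs, with the interferon core before the NF-kB-like match. The shared stretch of Tap1 and Psmb9 held TGACG and CCAAT, and no match to the interferon core or the NF-kB-like motif. RefSeq windows reaching from 250 bases before to 50 bases after the start were at hand for 8 of the 10 members, without Tap2 and Nlrc5. For H2-K1, 2 windows were listed, and the one with the most upstream start was used here and in the printed sequence. Matches stood in 3 of 8 windows for the interferon core and in 3 of 8 for the NF-kB-like motif, against 23.9% and 20.7% of all 32851 windows. TGACG stood in 5 of 8 against 20.8%, and CCAAT in 6 of 8 against 37.4%. The windows of Tap1 and Psmb9 overlap, and the same TGACG site and the same CCAAT site count for both. With the likeness of H2-K1 and H2-D1, the 8 windows are thus not independent. A further motif, TTCNNNGAA, the core of the gamma-activated sequence, stood in 1 of 8, that of Psmb8, against 8.30%. The motifs were chosen with the sequences in view, and a match describes letters and is no evidence of binding.

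**Figure D1:**
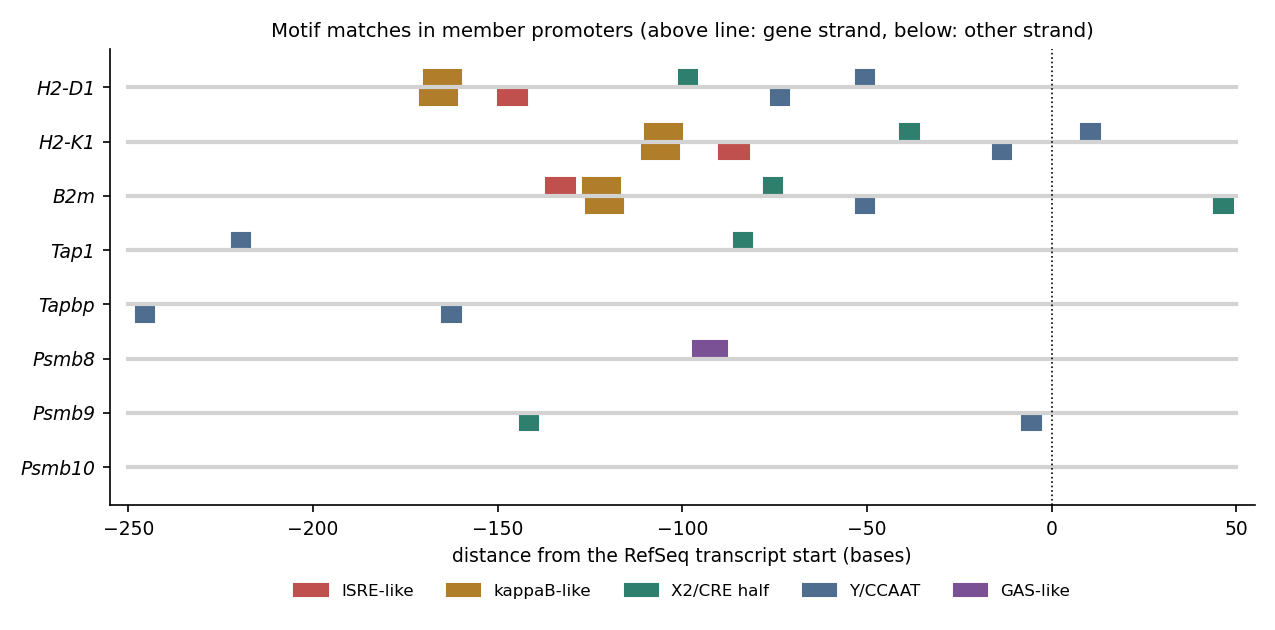
Positions of motif matches (coloured blocks) in the RefSeq start regions of 8 members, by distance from the transcript start in bases; blocks above a line are on the strand of the gene and blocks below it on the other strand. H2-D1 and H2-K1 carry the same row of matches, and Psmb10 carries none. The row lies closer to the start in H2-K1, for which 2 windows are listed and the most upstream start was used, so these distances depend on that choice.

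With AL/NP, the transcripts of both heavy chains stood higher in every library while the transcript of their partner B2m did not. H2-D1 was 1.40-fold as high (95% interval 1.09 to 1.78) and H2-K1 1.32-fold (1.04 to 1.68), whereas B2m was at 0.901-fold (0.687 to 1.18). Neither heavy chain passed the edgeR quasi-likelihood test over all genes, and DESeq2 called H2-D1 alone. The immunoproteasome subunits Psmb8, Psmb9 and Psmb10, the transporter subunit Tap2 and the transactivator Nlrc5 overlapped between the groups. In bulk tissue fewer cells of a type and less RNA per cell cannot be told apart.

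The edgeR test with Benjamini-Hochberg adjustment called 0 of the 10 members at an adjusted p of 0.05, where it called 0.0816% of 15939 tested genes (0.0627% higher and 0.0188% lower). At an unadjusted p under 0.05 there were 2 members, both higher, against 9.37% of all genes in that direction, 10.3% lower and 19.6% in either. DESeq2 called 1 of 10, against 5.69% of the genes it adjusted, and limma-voom called 0. The groups did not overlap in 3 members, H2-D1, H2-K1 and Tap1, all higher with AL/NP, against 14.5% of tested genes that stood apart in that direction. No member stood apart as lower, against 15.0%. The log2 fold change was above 0 in 6 of 10 members, against 50.0% of all genes. The median over members was 0.12, and over all tested genes -0.00025. With library totals as the only scaling it was above 0 in 8 members and their median was 0.28, where the median of all genes moved to 0.13.

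**Figure D2:**
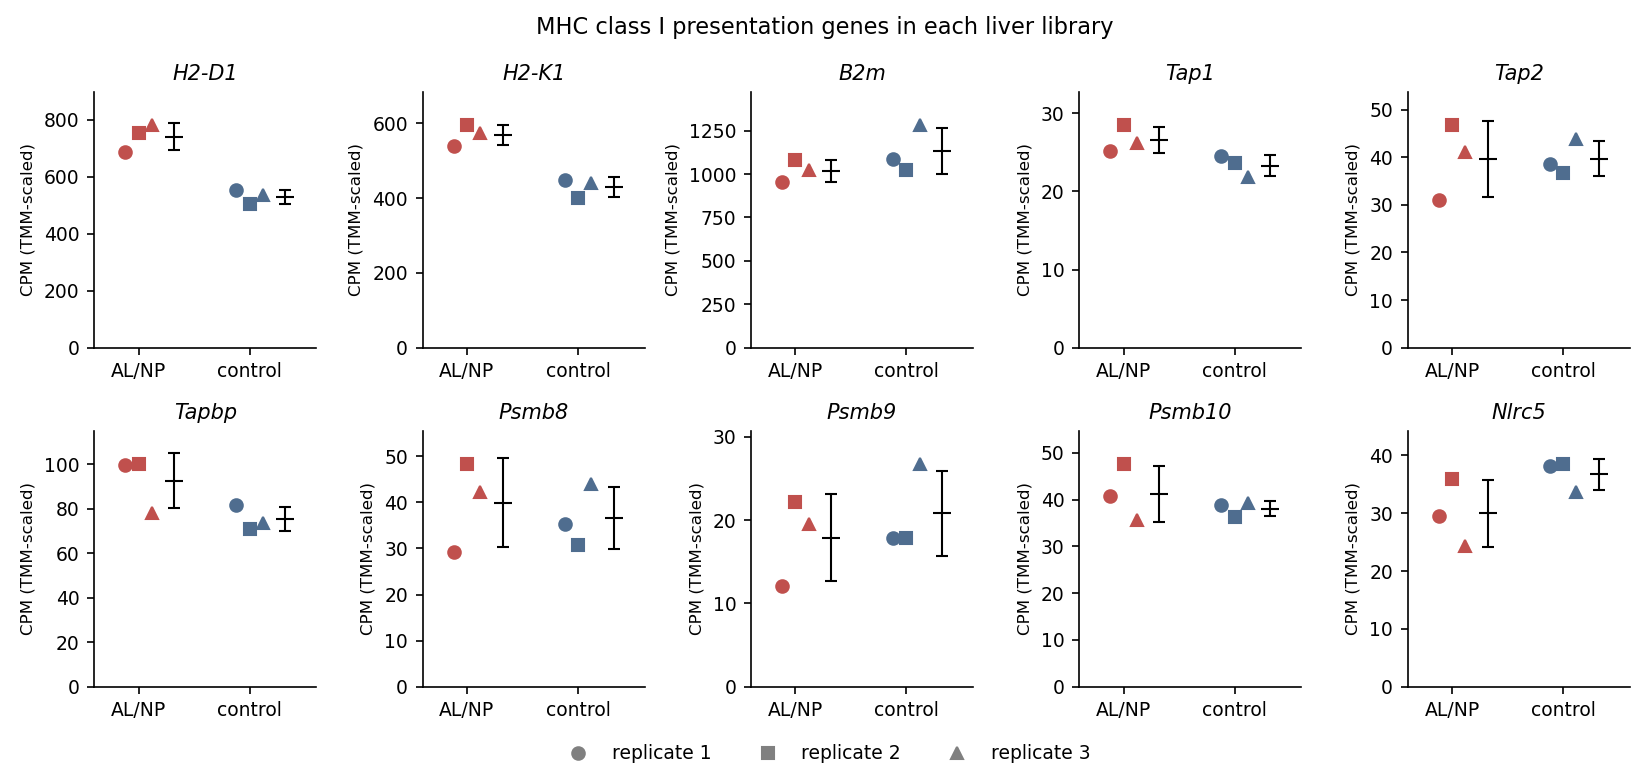
Level of each member in CPM (TMM-scaled) in the 3 AL/NP libraries (red) and the 3 control libraries (blue), with marker shapes for replicate numbers and the mean ± SD of each group in black. The AL/NP libraries of H2-D1 lie between 688 and 781 CPM and its control libraries between 504.3 and 553 CPM, while B2m, Tap2, Tapbp, Psmb8, Psmb9, Psmb10 and Nlrc5 overlap.

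H2-D1 (ENSMUSG00000073411, chr17:35262730-35267499) encodes one of the classical heavy chains, which hold the peptide. It measured 688, 754 and 781 CPM in AL/NP replicates 1 to 3 and 553, 504.3 and 535 CPM in control replicates 1 to 3. Every AL/NP library lay above every control. The means were 741 ± 47.5 CPM with AL/NP, against 531 ± 24.5 CPM in control livers (SD, n = 3 each), a log2 fold change of 0.48 (SE 0.155, adjusted p = 0.173, edgeR). DESeq2 gave an adjusted p of 0.0307 for it.

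H2-K1 (ENSMUSG00000061232, chr17:33996017-34000347) encodes the other classical heavy chain of this reference genome. It measured 540.05, 595 and 573 CPM in AL/NP livers and 449.7, 399.9 and 439.6 CPM in control livers. These values did not overlap either. The means were 569 ± 27.5 CPM with AL/NP, against 429.7 ± 26.3 CPM in control livers (SD, n = 3 each), a log2 fold change of 0.41 (SE 0.152, adjusted p = 0.207, edgeR; adjusted p = 0.0822, DESeq2). Whichever library was left out, the log2 fold change lay between 0.44 and 0.53 for H2-D1 and between 0.35 and 0.44 for H2-K1.

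The counts of both heavy chains are uncertain in one respect. Of the distinct 50-base windows in the protein-coding transcripts of H2-D1, 13.9% occurred exactly in a transcript of another gene, and 6.87% of those of H2-K1. The sequencing reads were also 50 bases long at each end, and how reads with several matches were counted is not given in the sources used here. BALB/c mice carry the H2d haplotype whereas GRCm38 is the C57BL/6 genome with the H2b haplotype, and H2-L, a further classical heavy chain of BALB/c, has no counterpart there. The reads of these polymorphic genes were thus counted against other alleles, in both groups alike, and its part in the levels was not tested.

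B2m (ENSMUSG00000060802, chr2:122147686-122153083) encodes beta-2 microglobulin, the invariant light chain that every class I heavy chain needs to reach the surface. It measured 955, 1078 and 1024 CPM in AL/NP livers and 1087, 1025 and 1281 CPM in control livers. AL/NP replicates 1 and 3 were below all controls, and replicate 2 was within their range. The log2 fold change was -0.15 (SE 0.172, 95% interval -0.54 to 0.24, adjusted p = 0.640, edgeR); with library totals as the only scaling it was 0.0016. None of its 50-base windows was shared with another gene.

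Ratios within a library do not depend on scaling between libraries. Counts of H2-D1 were 0.721, 0.699 and 0.762 times those of B2m in AL/NP livers and 0.508, 0.492 and 0.417 times in control livers. For H2-K1 to B2m the ratios were 0.566, 0.551 and 0.5599 with AL/NP and 0.414, 0.38995 and 0.343 in controls. Neither ratio overlapped between the groups. These ratios were chosen after the values were seen and carry no test. The ratio of H2-D1 to H2-K1 was 1.27, 1.27 and 1.36 with AL/NP and 1.23, 1.261 and 1.22 in controls, with AL/NP replicate 2 only just above the highest control.

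**Figure D3:**
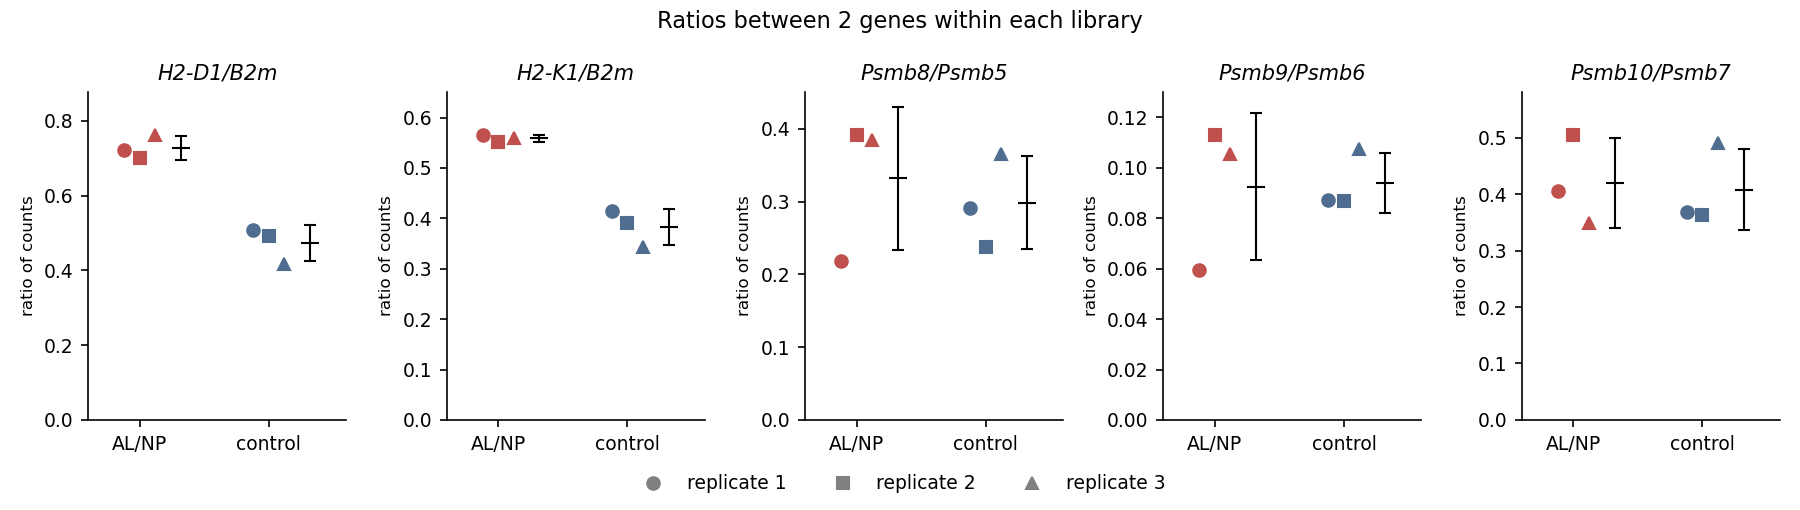
Ratios of counts between 2 genes within each library, for the 3 AL/NP libraries (red) and the 3 control libraries (blue), with marker shapes for replicate numbers and mean ± SD in black. The heavy chain to B2m ratios separate the groups (0.699 to 0.762 against 0.417 to 0.508 for H2-D1), and the immunoproteasome to constitutive subunit ratios do not.

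Peptide transport is carried out by a dimer of Tap1 and Tap2. Tap1 (ENSMUSG00000037321, chr17:34187553-34197225) measured 25.2, 28.5 and 26.2 CPM in AL/NP livers and 24.5, 23.6 and 21.8 CPM in control livers. Its groups did not overlap, but AL/NP replicate 1 stood only just above control replicate 1. The log2 fold change was 0.19 (SE 0.131, 95% interval -0.11 to 0.49, adjusted p = 0.423, edgeR). Tap2 (ENSMUSG00000024339, chr17:34203527-34216321) measured 31.1, 46.7 and 41.1 CPM with AL/NP and 38.5, 36.7 and 43.8 CPM in controls. AL/NP replicate 1 was the lowest and AL/NP replicate 2 the highest of the 6 libraries. Its log2 fold change was -0.0017 (95% interval -0.40 to 0.40, adjusted p = 0.997, edgeR), and its sign changed with the scaling.

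Tapbp (ENSMUSG00000024308, chr17:33915899-33929292) encodes tapasin, which bridges the transporter and the empty heavy chain. It measured 99.9, 100.007 and 78.2 CPM in AL/NP livers and 81.5, 70.8 and 73.8 CPM in control livers. AL/NP replicates 1 and 2 were above all controls and replicate 3 was within their range. The log2 fold change was 0.30 (SE 0.157, 95% interval -0.057 to 0.66, adjusted p = 0.311, edgeR). The neighbouring Zbtb22 shares 149 exonic bases with it on the same strand and had 2116 counts over all 6 libraries, against 16981 for Tapbp.

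The immunoproteasome forms when 3 inducible catalytic subunits replace their constitutive counterparts, which alters the peptides that are cut. Psmb8 (ENSMUSG00000024338, chr17:34197721-34201454), the counterpart of Psmb5, measured 29.3, 48.3 and 42.3 CPM in AL/NP livers and 35.2, 30.7 and 43.9 CPM in control livers. Psmb9 (ENSMUSG00000096727, chr17:34181987-34187764), the counterpart of Psmb6, measured 12.03, 22.1 and 19.5 CPM with AL/NP and 17.9, 17.9 and 26.7 CPM in controls. Psmb10 (ENSMUSG00000031897, chr8:105935735-105938444), the counterpart of Psmb7, measured 40.7, 47.5 and 35.6 CPM with AL/NP and 38.9, 36.2 and 39.2 CPM in controls. All 3 overlapped between the groups.

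AL/NP replicate 1 had the lowest Psmb8 and Psmb9 of all 6 libraries. The log2 fold change was 0.13 for Psmb8 (95% interval -0.36 to 0.61), -0.22 for Psmb9 (-0.79 to 0.36) and 0.12 for Psmb10 (-0.23 to 0.46), with edgeR adjusted p of 0.765, 0.648 and 0.681. The intervals leave room for a difference of up to 1.53-fold higher in Psmb8 and down to 0.578-fold in Psmb9. Without AL/NP replicate 1 the log2 fold change of Psmb8 was 0.31 and that of Psmb9 was 0.0023. Without AL/NP replicate 2 that of Psmb8 was -0.033.

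Of the constitutive subunits, Psmb5 and Psmb7 overlapped between the groups and Psmb6 did not. Psmb5 averaged 122 ± 11.96 CPM in AL/NP livers and 123 ± 4.78 CPM in control livers, and Psmb7 averaged 98.8 ± 4.16 CPM in AL/NP livers and 94.8 ± 13.4 CPM in control livers (SD, n = 3 each). Psmb6 measured 203, 196 and 185.4 CPM with AL/NP and 205, 206 and 248 CPM in controls, with no overlap (log2 fold change -0.17, adjusted p = 0.530, edgeR). Among 50-base windows of Psmb5, 54.1% also occurred in another annotated gene, so its counts are uncertain. Psmb7 shares 405 exonic bases with Nek6 on the other strand, and the strand setting of the counting is not given in the sources used here.

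Each inducible subunit was then set against its counterpart within a library. The ratio of Psmb8 to Psmb5 was 0.219, 0.392 and 0.385 in AL/NP livers and 0.292, 0.238 and 0.365 in control livers. That of Psmb9 to Psmb6 was 0.0593, 0.113 and 0.105 with AL/NP and 0.0870, 0.0870 and 0.108 in controls. That of Psmb10 to Psmb7 was 0.405, 0.505 and 0.349 with AL/NP and 0.369, 0.364 and 0.491 in controls. None separated the groups. The differences of the mean log2 ratios, AL/NP minus control, were 0.13, -0.069 and 0.038, and a 2-sided exact permutation test gave p of 0.8, 0.9 and 0.9, each 0.9 after adjustment over the 3 ratios. The smallest p that 3 against 3 libraries allow is 0.1.

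Tap1 and Psmb9 are read in opposite directions from the shared start region printed above, and GENCODE exons of the pair overlap by 212 bases. Their log2 fold changes were 0.19 for Tap1 and -0.22 for Psmb9, with neither called. The ratio of Tap1 to Psmb9 counts was 2.098, 1.29 and 1.34 in AL/NP livers and 1.37, 1.32 and 0.818 in control livers, which overlapped.

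Nlrc5 (ENSMUSG00000074151, chr8:94434356-94527272) encodes the transactivator that is recruited to the promoters of class I genes. It measured 29.5, 35.9 and 24.4 CPM in AL/NP livers and 38.1, 38.4 and 33.7 CPM in control livers. AL/NP replicates 1 and 3 were below all controls and replicate 2 was within their range. The log2 fold change was -0.29 (SE 0.169, 95% interval -0.68 to 0.091, adjusted p = 0.350, edgeR), opposite in sign to those of H2-D1 and H2-K1 under each scaling tried. A difference between Nlrc5 and the heavy chains was not tested.

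Levels across genes were compared as CPM per kilobase of summed exon length, which overstates length where only some annotated exons are used. On this scale B2m was highest, at 1185 ± 72.2 in AL/NP livers and 1315 ± 155 in control livers (SD, n = 3 each). H2-D1 followed at 287 ± 18.4 with AL/NP and 206 ± 9.51 in controls, and H2-K1 at 194 ± 9.36 with AL/NP and 146 ± 8.96 in controls. The other members were far lower, from 27.9 at the highest library of Psmb10 to 2.87 at the lowest of Nlrc5. Psmb10 and Tapbp overlapped in both groups, as did Psmb8 and Tap2. Nlrc5 lay between 2.87 and 4.23 with AL/NP and between 3.96 and 4.53 in controls, and Tap1 between 4.61 and 5.196 with AL/NP and between 3.99 and 4.47 in controls, so the pair overlapped in controls only. Psmb9 lay above both in controls and overlapped both with AL/NP, at 3.29 to 6.05. Transcript levels of the light chain exceeded those of either classical heavy chain on this scale in all 6 libraries. The reads of both heavy chains were counted against alleles of another haplotype, and the part of this in the ranking was not tested.

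AL/NP replicate 1 had the lowest level of the AL/NP group in 7 of the 10 members and AL/NP replicate 3 in the other 3, while replicate 2 was lowest in none.

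Other class I heavy chains sit in the H2-Q, H2-T and H2-M regions, and many are non-classical, with limited variation and particular receptors. Of 18 such genes listed, 17 were matched and 14 tested, and edgeR called 0. At an unadjusted p under 0.05 there were 6, all higher with AL/NP, against 9.37% of all genes in that direction. DESeq2 called 1, H2-Q6, as higher, against 2.87% of the genes it adjusted. Of the 14, 12 had a log2 fold change above 0, and their median was 0.42 against -0.00025 over all genes. H2-Q6 measured 79.3, 91.3 and 93.7 CPM in AL/NP livers and 64.5, 56.7 and 60.5 CPM in control livers (log2 fold change 0.54, SE 0.143, adjusted p = 0.1396, edgeR; adjusted p = 0.0253, DESeq2). H2-Q1 measured 40.2, 49.6 and 54.8 CPM with AL/NP and 37.1, 32.5 and 23.1 CPM in controls (log2 fold change 0.64, SE 0.204). H2-Bl measured 11.05, 13.3 and 14.5 CPM with AL/NP and 9.59, 8.73 and 5.59 CPM in controls (log2 fold change 0.70, SE 0.224).

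These 3 had the smallest p of the list, and their groups did not overlap. Over the list, 4 of 14 stood apart as higher, against 14.5% of all tested genes, and 1 as lower, against 15.0%. The H2-Q genes share sequence with others: 31.97% of the 50-base windows of H2-Q6 and 22.3% of those of H2-Q1 occurred in other genes, while H2-Bl shared none. H2-Q7 alone held 13.9% of those of H2-Q6, and H2-Q2 held 13.5% of those of H2-Q1. The genes of the list are thus not fully independent. Their reads were also counted against the H2b reference, and the part of this in their values was not tested. H2-Q10, named here after its values were seen because it encodes a secreted heavy chain made by mouse hepatocytes, went the other way. It measured 538, 659 and 696 CPM in AL/NP livers and 716, 727 and 885 CPM in control livers, also without overlap (log2 fold change -0.30, SE 0.181, adjusted p = 0.3697, edgeR). Summed over H2-D1 and H2-K1, the classical heavy chains reached 1228, 1348 and 1354 CPM with AL/NP and 1003, 904 and 974 CPM in controls. The 17 other heavy chains summed to 1103, 1332 and 1383 CPM with AL/NP and 1277, 1251 and 1416 CPM in controls, which overlapped. H2-Q10 decided this overlap: without it the other 16 summed to 565, 673 and 687 CPM with AL/NP and 560.4, 524.2 and 531 CPM in controls, with every AL/NP library above every control and replicate 1 only just so. That sum was taken after the values were seen and carries no test.

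**Figure D4:**
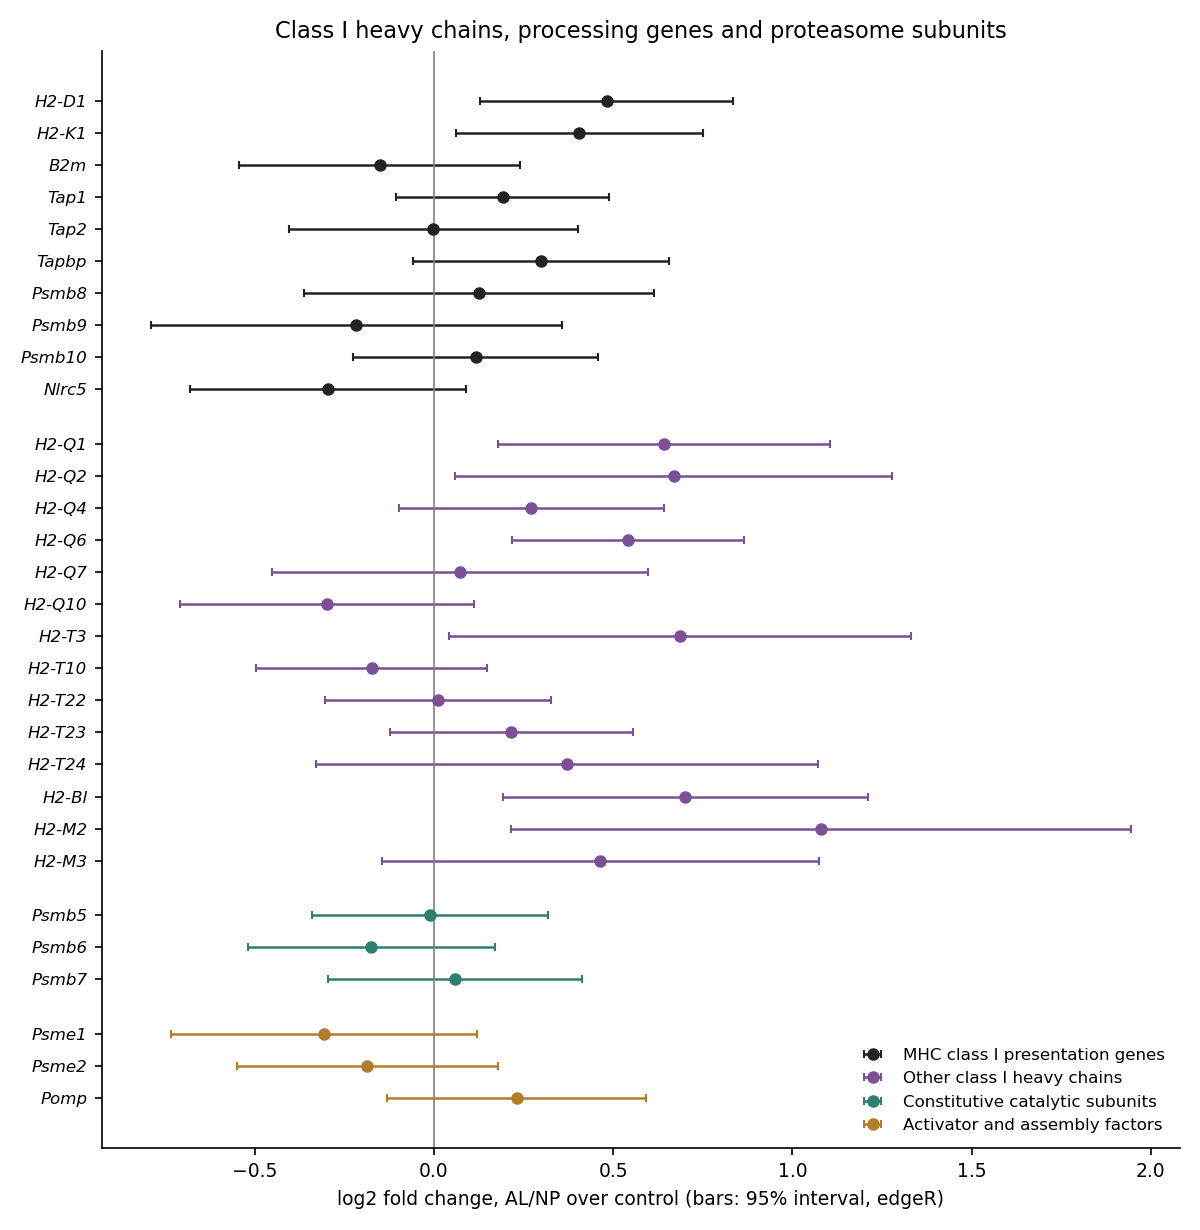
Log2 fold change of AL/NP over control with its 95% interval (edgeR) for the 10 members (black), 14 other class I heavy chains (purple), 3 constitutive catalytic proteasome subunits (green) and 3 activator and assembly factors (ochre). The intervals of H2-D1 and H2-K1 lie above 0, those of the other 8 members span it, and H2-Q10 lies at -0.30.

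Several class I like molecules also pair with B2m. Of 6, 2 were above 0 and 4 below, with a median log2 fold change of -0.099. Fcgrt, the heavy chain of the neonatal Fc receptor that recycles IgG and albumin, measured 120, 93.6 and 97.1 CPM in AL/NP livers and 67.0, 68.2 and 48.2 CPM in control livers. Its libraries did not overlap (log2 fold change 0.76, SE 0.185; adjusted p = 0.126, edgeR; 0.0152, DESeq2). Hfe, a regulator of iron uptake, was at 0.22 and Azgp1, a secreted class I like protein, at -0.14, with adjusted p of 0.379 and 0.644 (edgeR).

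Among 9 further factors of peptide trimming, folding and loading in the endoplasmic reticulum, edgeR and DESeq2 each called 0. An unadjusted p under 0.05 stood in 2, both higher, against 9.37% of all genes in that direction. Canx, the chaperone calnexin that holds new heavy chains, measured 331, 264 and 317 CPM in AL/NP livers and 244, 216 and 110.1 CPM in control livers (log2 fold change 0.68, SE 0.278, adjusted p = 0.234, edgeR). Hspa5, the general chaperone BiP, was at 0.66 (SE 0.279) and overlapped. Pdia3, the disulphide isomerase of the loading complex, had the opposite sign at -0.33 (SE 0.180, adjusted p = 0.323, edgeR), with 612, 688 and 823 CPM with AL/NP and 985, 844 and 847 CPM in controls. Erap1, which trims peptides to length, was at 0.19 (adjusted p = 0.533, edgeR).

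The activator subunits Psme1 and Psme2, which interferon-gamma induces together with the immunoproteasome, were at -0.31 (SE 0.188) and -0.19 (SE 0.1605), and the assembly factor Pomp was at 0.23 (SE 0.159). None was called, with adjusted p of 0.377, 0.526 and 0.427 (edgeR). Of 11 structural subunits of the 20S core, 8 were above 0 with a median log2 fold change of 0.13. Psma1 was at 0.44, Psmb4 at 0.47 and Psmb3 at -0.39, and edgeR and DESeq2 each called 0. At an unadjusted p under 0.05 there were 2, both higher, against 9.37% of all genes in that direction.

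Over the 15 listed transcription factors of class I genes the median log2 fold change was 0.022, and 8 lay above 0. edgeR called 0 and DESeq2 called 1, Rfxap, as higher, against 2.87% of the genes it adjusted. At an unadjusted p under 0.05 there were 4, 3 higher and 1 lower, against 9.37% of all genes higher and 10.3% lower. Rfxap, a subunit of the complex that binds the X box, measured 13.1, 9.47 and 10.9 CPM in AL/NP livers and 7.38, 6.82 and 6.96 CPM in control livers (log2 fold change 0.66, SE 0.174; adjusted p = 0.1396, edgeR; 0.03997, DESeq2). Irf2, which binds the same sites as Irf1, measured 14.04, 20.75 and 17.5 CPM with AL/NP and 25.2, 24.1 and 31.9 CPM in controls (log2 fold change -0.63, SE 0.187, adjusted p = 0.151, edgeR). Nfkb1, an NF-kB subunit, was at 0.40 (SE 0.133), with 27.6, 27.9 and 29.2 CPM with AL/NP and 23.4, 21.1 and 19.7 CPM in controls. Each of these 3, which had the smallest p of the list, separated the groups. Of the 15, 3 stood apart as higher, against 14.5% of all tested genes, and 1 as lower, against 15.0%. Irf1, named for its place in the pathway, was at 0.022 with an adjusted p of 0.965 (edgeR).

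Interferon transcripts themselves were at the limit of detection. Ifng was counted 0, 1 and 1 times in AL/NP livers and 0, 0 and 1 times in control livers, and a level of 3 counts in a library corresponds to 0.0826 to 0.104 CPM, so a difference was not detectable at this depth. Of 10 tested receptor and signalling genes, 6 were above 0, with a median of 0.051 and 0 called by edgeR or DESeq2. Against 9.37% of all genes higher at an unadjusted p under 0.05, this list held 1. That was Ifngr2, a chain of the interferon-gamma receptor, at 0.57 (SE 0.229, adjusted p = 0.228, edgeR). Ifnar2 was at 0.32 and Stat2 at -0.28.

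Interferon-stimulated genes did not share one direction. Of 29 tested, 17 were above 0 and 12 below, with a median log2 fold change of 0.18. edgeR called 0 and DESeq2 called 1, against 5.69% of the genes it adjusted. At an unadjusted p under 0.05 there were 4, 2 in each direction, against 9.37% of all genes higher and 10.3% lower. Gbp2, an interferon-induced GTPase and the one DESeq2 called, measured 3.27, 4.93 and 4.96 CPM in AL/NP livers and 1.95, 1.41 and 0.870 CPM in control livers (log2 fold change 1.63, SE 0.337; adjusted p = 0.103, edgeR; 4.93e-04, DESeq2). Ifit2, a type I interferon target, was at -0.86 (SE 0.3004), and Cxcl11, a chemokine for activated T cells, at -1.10 (SE 0.395), with adjusted p of 0.194 and 0.198 (edgeR). Both were lower in all 3 AL/NP libraries than in any control. Of the 29, 4 stood apart as lower, against 15.0% of all tested genes, and 2 as higher, against 14.5%.

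**Figure D5:**
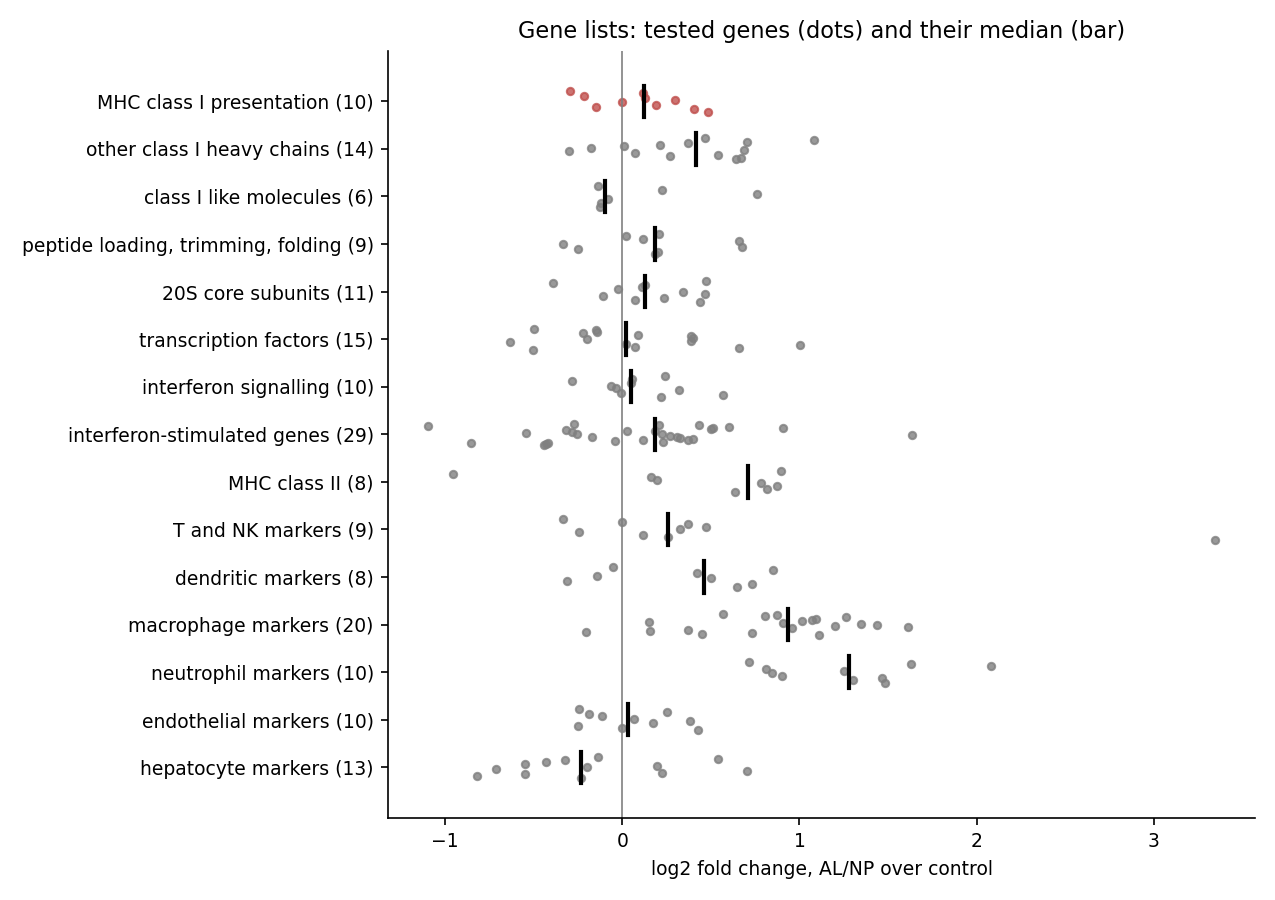
Log2 fold change of AL/NP over control for the tested genes of each list (dots, number of genes in brackets) with the median as a bar; the class I presentation genes are in red. Their median is 0.12, that of the other class I heavy chains 0.42, and those of macrophage and neutrophil markers 0.93 and 1.28.

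Of 20 macrophage markers, 19 were above 0, with a median log2 fold change of 0.93. At an unadjusted p under 0.05 there were 12, all higher, against 9.37% of all genes in that direction. Where DESeq2 called 2.87% of the genes it adjusted as higher, it called 5 of these markers, and edgeR called 0 of them. Their summed level was 563 to 986 CPM in AL/NP livers and 292 to 487 CPM in control livers, and no marker had 0 counts. Of the 20, 7 stood apart as higher, against 14.5% of all tested genes, and the others overlapped. Among those that overlapped were Clec4f, the 1 marker below 0, at -0.20 (adjusted p = 0.763, edgeR), Timd4 at 0.16 and Vsig4 at 0.37. Mpeg1, a pore-forming protein of macrophages, measured 154, 131 and 138 CPM in AL/NP livers and 53.8, 57.9 and 72.1 CPM in control livers (log2 fold change 1.201, SE 0.166; adjusted p = 0.0579, edgeR; 7.76e-08, DESeq2). Cd5l, secreted by tissue macrophages, measured 39.1, 38.9 and 56.8 CPM in AL/NP livers and 17.8, 17.6 and 20.7 CPM in control livers (log2 fold change 1.264, SE 0.185; adjusted p = 0.0640, edgeR; 2.02e-06, DESeq2). All 10 tested neutrophil markers were above 0, with a median of 1.28. Of these 10, 5 stood apart as higher, against 14.5% of all tested genes. edgeR called 0 of them and DESeq2 called 4 as higher, against 2.87% of the genes it adjusted. Dendritic markers summed to 20.4 to 21.5 CPM with AL/NP and 14.6 to 25.9 CPM in controls. T and NK cell markers summed to 7.20 to 22.7 CPM with AL/NP and 4.94 to 8.11 CPM in controls, and Cd3e alone made 16.6 CPM in AL/NP replicate 1. MHC class II genes, carried by antigen-presenting cells, had a median of 0.71 over 8 tested members, with 7 above 0, H2-Eb1 at 0.87 and H2-Ab1 at 0.82. edgeR called 0 of the 8 and DESeq2 called 1, H2-Eb1, as higher, against 2.87% of the genes it adjusted. The 1 gene below 0 was H2-Ob, at -0.95 (SE 0.346, adjusted p = 0.200, edgeR), and every AL/NP library lay below every control. Of the 8 class II genes, 2 stood apart as higher, against 14.5% of all tested genes, and 1 as lower, against 15.0%. The others overlapped, H2-Aa, Cd74 and H2-DMa among them.

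Hepatocyte markers went both ways: of 13 tested, 4 were above 0 and 9 below, with a median of -0.23. At an unadjusted p under 0.05 there were 2 in each direction, against 9.37% of all genes higher and 10.3% lower. edgeR called 0 of the 13, and DESeq2 called 1 higher and 1 lower, against 5.69% of the genes it adjusted. Ttr, the carrier transthyretin, measured 3373, 4073 and 3568 CPM in AL/NP livers and 6053, 5589 and 7826 CPM in control livers (log2 fold change -0.82, SE 0.217; adjusted p = 0.1396, edgeR; 0.00222, DESeq2). Serpina1a, a secreted protease inhibitor, measured 6133, 4382 and 6039 CPM in AL/NP livers and 3647, 2719 and 3797 CPM in control livers (log2 fold change 0.70, SE 0.233; adjusted p = 0.179, edgeR; 0.0288, DESeq2). Stellate cell and myofibroblast markers had a median of -0.38, with 7 of 10 below 0, and all 5 tested cholangiocyte markers were above 0, with a median of 0.57. Of these 5, 0 had an unadjusted p under 0.05 (edgeR) and 0 stood apart, against 19.6% and 29.5% of all tested genes. edgeR and DESeq2 each called 0 of the 5. The median was 0.031 over 10 endothelial markers and -0.27 over 6 B cell markers. The part of these marker levels in the heavy chain values was not tested.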

How the data were processed

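Polyadenylated RNA from frozen liver pieces was sequenced in paired ends after a strand-marking TruSeq preparation, per the labels. The deposited table holds whole-number read counts per Ensembl gene, 1 column per library, with no normalization, as the values show. Per the submitters' processing notes, the GRCm38 build, STAR 2.6.1a, featureCounts and DESeq2 1.26.0 were used; the strand setting, annotation release and treatment of reads with several matches are not given in the sources used here.

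Differences between the groups were tested in R 4.3.3 by edgeR 4.0.16, quasi-likelihood (TMM scaling, robust fit, filterByExpr with a minimum count of 10), which tested 15939 genes. The Benjamini-Hochberg adjustment covered all of them, at a threshold of 0.05. SE is the absolute log2 fold change over the square root of F. DESeq2 1.42.0 and limma 3.58.1 (voom) were alternatives, beside other scalings and filters, a replicate block, each library left out, and 0.5 CPM added before ratios. Coordinates and exon lengths come from GENCODE M21 (GRCm38), and promoters from RefSeq; of 41388 identifiers, 40254 had a symbol. Libraries were distinct: no pair differed by less than 30.6 chi-square units per degree of freedom.

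The members, lists and tests were chosen with earlier results of these data known. Genes named beyond the members and the constitutive subunits were the 3 with the smallest p of each pathway list, or up to 2 of each cell type list, except where the text says otherwise. H2-Q10, Erap1, Irf1 and Ifng fall outside this rule and were named for their role after their values were seen. Clec4f, Timd4, Vsig4, H2-Ob, H2-Aa, Cd74 and H2-DMa also fall outside it. They were named after their values were seen, to show limits of the list results. The 95% intervals are those of edgeR fold changes and take in the spread between libraries. The detection level is 3 counts converted to CPM and carries no interval.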

Additional observations from a re-analysis of the deposited data

How the results depend on the processing

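The count of genes called among all tested depended on the processing. Against 13 in the edgeR fit as reported, it was 0 with library totals (2254 at an unadjusted p under 0.05), 747 with every gene of at least 1 count, 0 with at least 50 counts in 3 libraries (2786 unadjusted), 883 with DESeq2, 8 with limma-voom and 23 with the replicate block. With 1 library left out in turn it ranged from 0 to 4, and between 2229 and 3022 genes had an unadjusted p under 0.05. At an unadjusted p under 0.05 stood 2 members in the fit as reported and 0 without control replicate 2. Of the members, DESeq2 called 1 and every other setting called 0. The cause of these differences was not tested. H2-D1, H2-K1, Tap1, Tapbp, Psmb10 and Nlrc5 kept their sign under all 13 alternatives. The others did not under some. B2m was at 0.0016 with library totals. Tap2 was at 0.0013 with DESeq2 size factors, 0.16 with library totals, 0.00034 with every gene of at least 1 count, 0.0048 with DESeq2, and between -0.14 and 0.15 with libraries left out, positive at 0.15 when AL/NP replicate 1 was left out and at 0.072 when control replicate 3 was. Psmb9 ranged from -0.40 to 0.0023 and Psmb8 from -0.033 to 0.31 with libraries left out. The log2 ratio difference ranged from -0.026 to 0.40 for Psmb8 to Psmb5, from -0.24 to 0.22 for Psmb9 to Psmb6 and from -0.10 to 0.18 for Psmb10 to Psmb7, so none had a stable sign. The replicate numbers were not taken to pair the libraries. Deviations from the group means correlated at -0.055, 0.043 and 0.075 over genes for numbers 1 to 3. The highest correlation of each AL/NP library with a control of another number was 0.097, 0.054 and 0.028. With 3 libraries per group these values cannot exclude a pairing. With the replicate block no member was called, and permutation within replicate numbers gave an exact p of 0.75, 0.75 and 1 for the 3 ratios. Depth limits the interferon transcripts, whereas no member had fewer than 346 counts in a library.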
